A study of Mus musculus with 384 samples.

Results

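The nuclear genes of mitochondrial oxidative phosphorylation were followed in single tdTomato-sorted cells of the mouse midbrain. The members were all entries of the count table whose symbols begin with *Ndufa*, *Ndufb*, *Ndufc*, *Ndufs*, *Ndufv*, *Uqcr*, *Cox4* to *Cox8*, or *Atp5*, or are *Sdha*, *Sdhb*, *Sdhc*, or *Sdhd*. This name rule found 99 of 47082 entries, and it used no measured value. A gene was tested if 10 or more reads fell on it in 10 or more of the cells kept, and 84 of the 99 members were, among 12105 genes. The cells came from 8 C57BL6/J DATIRESCre;Ai9 mice aged 24–36 d by their labels. In this cross, Cre made from the dopamine transporter gene switches on tdTomato, so a cell stays red if it used that gene at any earlier time. No mouse lacked the transgenes, and no mouse was treated. There were 3 mice labelled female (1, 4, and 6) and 5 labelled male (2, 3, 5, 7, and 8), although the series text counts the sexes differently. The dissected midbrain included the hypothalamus.

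Oxidative phosphorylation couples the transfer of electrons from NADH and succinate to oxygen with the making of ATP. Complexes I, III, and IV pump protons out of the mitochondrial matrix, complex II feeds electrons in without pumping, and complex V (ATP synthase) uses the returning protons to make ATP. Dopamine neurons of the substantia nigra fire without synaptic input and carry a high energy load, and toxins that block complex I can kill them. Complexes I, III, IV, and V also hold subunits encoded by the mitochondrial genome. The 13 entries for those subunits carried no count in any cell, so only the nuclear side of each complex was measured.

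Of 384 cells, 209 had at least 500000 reads on genes and were retained, with a median of 780466 reads (range 500672–1544810). Cells were split by *Th*, the gene for the rate-limiting enzyme of dopamine synthesis, and by *Aldh1a7*, an aldehyde dehydrogenase gene listed here as a marker of the nigral type. There were 74 *Th*-rich *Aldh1a7*+ cells, 107 *Th*-rich *Aldh1a7*- cells, and 28 *Th*-poor cells. *Th*-rich means at least 1000 reads of *Th* per 1000000 reads on genes (CPM) and *Aldh1a7*+ means at least 10 reads of *Aldh1a7*. By this division the median level of *Th* was 21.6 CPM in the *Th*-poor cells, 7313 CPM in the *Aldh1a7*+ cells, and 6480 CPM in the *Aldh1a7*- cells. Only 2 retained cells had 10000 CPM or more on 6 oligodendrocyte markers, a *Th*-poor cell of mouse 3 with 120158 CPM and a *Th*-poor cell of mouse 7 with 31138 CPM. They entered the levels per mouse and the comparison of the sexes, and none of the libraries in the main comparisons of classes below.

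The promoters of 5 genes of complex IV are shown first, because the clearest contrast within the family was between isoforms of 1 subunit. *Cox6a1* was the member with the highest level per kb of transcript, *Cox8a* and *Cox6b1* are the isoforms in use, and *Cox8b* and *Cox6b2* are isoforms with no or few reads. Each sequence is the RefSeq promoter window of GRCm38.p6, from 250 bases before to 50 bases after the start of the gene, written 5′ to 3′ on the strand of the gene. Capitals mark a match to the core letters of the NRF1 motif (GCGCATGC), the ETS motif (CCGGAAG), or the YY1 motif (AAGATGGC) on either strand. NRF1 is a transcription factor known for its sites at genes of respiration, and members of the ETS family and YY1 also bind at many such promoters.
Cox6a1, chr5:115348909-115349208, minus strand: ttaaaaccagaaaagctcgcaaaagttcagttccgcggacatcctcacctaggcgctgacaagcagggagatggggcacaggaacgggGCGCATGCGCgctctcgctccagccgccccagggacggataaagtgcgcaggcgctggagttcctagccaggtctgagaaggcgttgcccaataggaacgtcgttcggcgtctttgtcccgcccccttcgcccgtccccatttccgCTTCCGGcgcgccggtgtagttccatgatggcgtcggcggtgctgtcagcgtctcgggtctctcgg
Cox8a, chr19:7217567-7217866, minus strand: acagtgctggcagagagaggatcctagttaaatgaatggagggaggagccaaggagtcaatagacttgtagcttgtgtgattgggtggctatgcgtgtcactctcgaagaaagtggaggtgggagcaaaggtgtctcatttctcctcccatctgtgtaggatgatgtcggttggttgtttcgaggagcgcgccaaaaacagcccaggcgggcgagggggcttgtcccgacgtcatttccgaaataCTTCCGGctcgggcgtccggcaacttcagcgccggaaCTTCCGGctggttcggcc
Cox8b, chr7:140900397-140900696, minus strand: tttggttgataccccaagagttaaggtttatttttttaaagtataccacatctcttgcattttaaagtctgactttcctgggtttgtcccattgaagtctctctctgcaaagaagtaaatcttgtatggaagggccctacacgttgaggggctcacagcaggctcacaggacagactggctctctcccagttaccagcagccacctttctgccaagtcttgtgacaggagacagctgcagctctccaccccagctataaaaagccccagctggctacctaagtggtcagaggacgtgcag
Cox6b1, chr7:30626065-30626364, minus strand: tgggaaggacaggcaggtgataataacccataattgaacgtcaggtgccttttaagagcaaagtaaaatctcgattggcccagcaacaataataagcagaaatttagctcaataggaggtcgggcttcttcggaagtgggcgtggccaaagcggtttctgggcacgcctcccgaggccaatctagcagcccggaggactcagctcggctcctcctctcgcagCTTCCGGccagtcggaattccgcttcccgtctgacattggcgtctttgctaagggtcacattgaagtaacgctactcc
Cox6b2, chr7:4753045-4753344, minus strand: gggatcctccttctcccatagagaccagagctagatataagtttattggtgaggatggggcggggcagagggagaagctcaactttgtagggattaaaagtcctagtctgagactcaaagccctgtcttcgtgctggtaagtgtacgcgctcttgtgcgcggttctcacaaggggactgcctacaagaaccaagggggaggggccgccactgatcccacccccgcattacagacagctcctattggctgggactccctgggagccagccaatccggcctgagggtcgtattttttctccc
The first window holds both strands of the NRF1 core as 1 overlapping run and 1 ETS core near the start. The window of *Cox8a* has 2 ETS cores and that of *Cox6b1* has 1. No capitals stand in the windows of *Cox8b* and *Cox6b2*, which says only that these letters are not there. Among 72 tested members with a promoter entry, 12 held the NRF1 core (16.7%), 17 the ETS core (23.6%), and 11 the YY1 core (15.3%). Of all 27025 genes with an entry, 3.05%, 9.93%, and 3.19% did. These also take in genes that were not tested here. No share over the tested genes alone is given, so the gap cannot be set apart from that of expressed genes. At least 1 of the 3 cores was found for 34 of the 72 (47.2%), for 0 of 4 untested members with an entry, and for 14.9% of all genes. Cores can overlap each other, and a match is not evidence that a factor binds.

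The members were expressed broadly. Together they took 2.12% ± 0.156 (SD, n = 8 mice) of the reads on genes, with the lowest share in mouse 7 (1.78%) and the highest in mouse 4 (2.26%). These are shares of a library, not amounts of RNA per cell. Across single cells the share ran from 0.625% to 5.48%, with a median of 2.08% and with 10% of cells under 1.62% and 10% over 2.69%. At 10 reads or more, 65 of the 84 tested members were found in at least 95% of the retained cells. The median member was found in 98.6% of cells, against 40.2% for the median of all genes tested, and its level was 209 CPM against 27.0 CPM. Members also varied little between mice: the median coefficient of variation over 8 mice was 16.5% for members and 42.1% for all genes tested. Counting error is larger for genes with fewer reads, and its part in this gap was not tested.

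Levels differed widely between genes once divided by transcript length (CPM per kb). *Cox6a1*, the broadly expressed isoform of subunit 6a of cytochrome *c* oxidase, had the highest level with 1555 ± 275 CPM per kb (SD, n = 8 mice), and its lowest mouse (1135) lay above the highest mouse of the next member (1077). *Atp5o*, a subunit of the stalk that holds the catalytic head of ATP synthase in place, followed at 922 ± 125 CPM per kb. *Ndufa4*, named as a complex I gene but described later as part of complex IV, had 913 ± 111 CPM per kb. *Cox4i1*, the widely expressed isoform of subunit 4, had 894 ± 97.4 CPM per kb, and *Uqcrq*, a small subunit of complex III, had 755 ± 102 CPM per kb. The ranges of these 4 genes over the mice overlapped, so their order is not resolved.

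At the other end stood genes whose products assemble the complexes or are rarely used isoforms. *Ndufaf6*, an assembly factor of complex I, had 8.92 ± 4.35 CPM per kb (SD, n = 8 mice). *Ndufaf4*, another assembly factor, had 11.7 ± 2.37 CPM per kb and *Cox7a1* had 12.1 ± 6.13 CPM per kb. *Atp5sl* and *Atp5s*, which the rule took in by name and which RefSeq now lists as *Dmac2* and *Dmac2l*, had 18.7 ± 8.01 and 24.2 ± 6.63 CPM per kb. The ranges of *Ndufaf6*, *Ndufaf4*, and *Cox7a1* overlapped. The median over the 7 assembly factors was 38.8 CPM per kb, against 248 for the 36 complex I genes, 214 for the 4 of complex II, 415 for the 8 of complex III, 294 for the 12 of complex IV, and 361 for the 17 of complex V. Here and below, genes were grouped by name. *Ndufa4* was therefore counted in complex I, and *Atp5sl* and *Atp5s* in complex V. The length was that of the shortest of the transcripts with the best APPRIS tag in GENCODE. With the longest one in its place, which is over 1.5 times longer for 8 members, 3 of the 5 highest and all 5 lowest members stayed in those places, and *Ndufb8* and *Atp5b* took the places of *Atp5o* and *Uqcrq*.

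**Figure D1:**
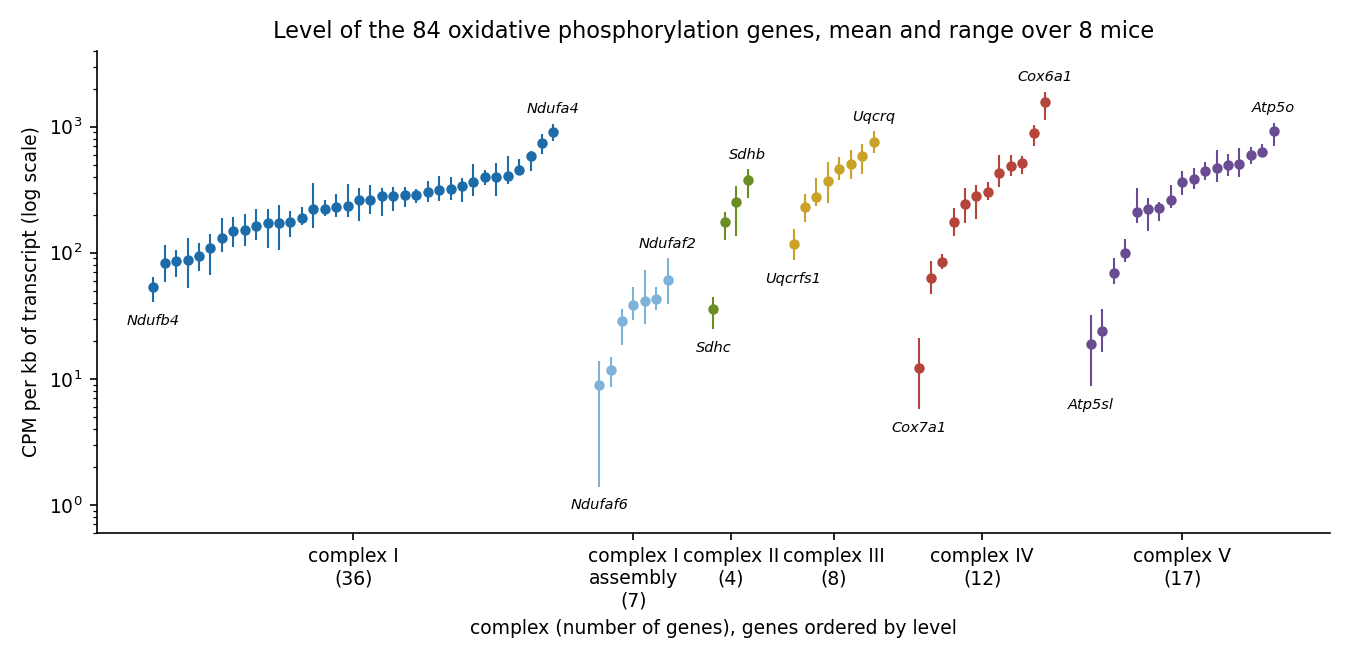
Level of each of the 84 tested genes, in CPM per kb of transcript on a log axis, with genes grouped by complex and ordered by level. Points are means and bars the lowest and highest of 8 mice, and *Cox6a1* (1555 CPM per kb) stands above all others while *Ndufaf6* (8.92 CPM per kb) is lowest.

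Core and other well-studied subunits were present at very different levels per kb. In complex I, *Ndufs1*, the iron-sulfur subunit of the NADH-oxidizing module, had 82.9 ± 20.3 CPM per kb (SD, n = 8 mice), and *Ndufv1*, which binds NADH and flavin, had 164 ± 34.0 CPM per kb. *Sdha*, the flavin-carrying catalytic subunit of complex II, had 253 ± 58.5 CPM per kb and its iron-sulfur partner *Sdhb* had 374 ± 57.7 CPM per kb. In complex III, the Rieske iron-sulfur protein *Uqcrfs1* had 117 ± 25.0 CPM per kb and the core protein *Uqcrc1* had 368 ± 91.8 CPM per kb. *Cox5a*, a nuclear-encoded subunit of complex IV outside its catalytic core, had 283 ± 51.6 CPM per kb, and *Atp5b*, the catalytic β subunit of ATP synthase, had 631 ± 58.5 CPM per kb. Subunits that work in fixed ratio as protein were thus not at equal RNA levels on this scale.

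The smaller complexes are given in full. In complex II, the membrane anchors *Sdhd* and *Sdhc* had 174 ± 27.0 and 36.0 ± 7.24 CPM per kb (SD, n = 8 mice), so *Sdhc* in its highest mouse (44.4) lay below the other 3 genes in their lowest. In complex III, *Uqcrfs1* was lowest, its highest mouse (155) below the lowest mouse of *Uqcrc2* (175). The core protein *Uqcrc2* had 230 ± 36.7 CPM per kb and the small subunits *Uqcrb*, *Uqcrh*, *Uqcr10*, and *Uqcr11* had 278 ± 48.8, 463 ± 70.5, 501.9 ± 86.2, and 589 ± 94.4 CPM per kb. Each of these overlapped its neighbours in level over the mice. In the catalytic head of ATP synthase, *Atp5a1* and *Atp5b*, the α and β subunits, had 446 ± 50.2 and 631 ± 58.5 CPM per kb and their ranges did not overlap. The central stalk genes *Atp5c1*, *Atp5d*, and *Atp5e* had 495 ± 68.0, 228 ± 24.3, and 210 ± 49.3 CPM per kb. Of the widely used complex IV genes, *Cox7c* was lowest at 63.5 ± 13.2 CPM per kb. The levels of all members leave out reads that matched several genes, which had been dropped upstream. The loss per gene was not tested.

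The spread between mice was widest for members with few reads. *Cox7a1*, *Ndufaf6*, and *Atp5sl* had coefficients of variation of 50.8%, 48.8%, and 42.8% over 8 mice, at 4.75, 9.65, and 44.7 CPM. A low level did not always go with a wide spread, since *Atp5g2* had 18.4% at 30.6 CPM. *Ndufb6*, an accessory subunit of complex I, had the smallest, 7.75% at 188 CPM, and *Atp5b* had 9.26% at 1209 CPM. These genes were chosen after their values were seen.

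Where a subunit has several isoform genes, 1 gene gave nearly all the RNA in most families. Isoform shares are parts of the family's summed CPM per kb, averaged over 8 mice. *Cox8a* gave 100%, and *Cox8b*, the heart and muscle isoform, and *Cox8c*, a testis isoform, had 0 reads in the 209 cells, which allows a level of up to 0.0179 CPM (counting error only). *Cox4i2*, the isoform known from lung and low oxygen, had 7 reads against 113234 for *Cox4i1*. *Cox6a2*, the muscle isoform, had 2 reads against 145213 for *Cox6a1*, and *Ndufa4l2* had 8 against 68978 for *Ndufa4*. *Cox6b2* gave 0.650% of its family (SD 0.816, range 0.0497–2.59%) and *Cox7b2* gave 0.684% (SD 0.766, range 0–2.42%). These 2 minor isoforms reached 10 reads in 8 and 5 cells.

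The RNA was mixed in 2 families. In the first, *Cox7a2* gave 75.8% ± 2.84 (SD, n = 8 mice) of the summed level, *Cox7a2l*, whose product joins complexes III and IV in supercomplexes, gave 21.3% ± 3.40, and the heart and muscle isoform *Cox7a1* gave 2.91% ± 1.15. *Cox7a1* reached 10 reads in 18 of 74 *Aldh1a7*+ cells, in 15 of 107 *Aldh1a7*- cells, and in 2 of 28 *Th*-poor cells, with at most 52 reads in a cell. The second family holds the 3 genes that encode the same mature *c* subunit of the ATP synthase ring. *Atp5g3* gave 56.7% ± 3.25, *Atp5g1* 36.6% ± 2.99, and *Atp5g2* 6.68% ± 1.25 of their sum. The place of *Atp5g1* depends on its length, since with the longest transcript it gave 7.20% ± 0.862 and *Atp5g3* gave 86.6% ± 1.66.

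The 15 members that were not tested comprise the 7 minor isoforms named above (*Cox4i2*, *Cox6a2*, *Cox6b2*, *Cox7b2*, *Cox8b*, *Cox8c*, and *Ndufa4l2*), 4 pseudogenes, and 4 entries of *Ndufa7*. The pseudogenes *Atp5l-ps1*, *Atp5l-ps2*, *Atp5l2-ps*, and *Atp5c1-ps* had 7, 21, 21, and 4 reads, and reads that match them and their parent genes equally cannot be told apart. The count table repeats *Ndufa7*, a subunit of complex I, in 4 entries with 0, 0, 2, and 2 reads. Reads that matched several genes had been dropped upstream, so a level of *Ndufa7* cannot be given.

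Whether *Aldh1a7*+ and *Aldh1a7*- dopamine neurons differ in these genes was asked within 7 mice that had at least 3 *Th*-rich cells of each class (74 and 96 cells, 4–28 per mouse and class). Values were slightly higher in the *Aldh1a7*+ cells for most members, and none passed the test. The summed level was 2.28% ± 0.247 of reads in *Aldh1a7*+ cells and 2.11% ± 0.263 in *Aldh1a7*- cells (SD, n = 7 mice), and it was higher in 5 of 7 mice. In *Aldh1a7*+ cells the lowest and highest mice had 1.92% and 2.58%, and in *Aldh1a7*- cells 1.67% and 2.49%, so the classes overlapped. The difference, 0.166 percentage points, was smaller than its spread over mice (SD 0.258). Mice 3 and 8 went the other way, with 2.23% against 2.36% and 1.92% against 2.08%. Mouse 6, with 4 *Aldh1a7*+ cells, had the widest gap (2.58% against 2.03%), and without it the difference was 0.103 percentage points. By the median over cells mouse 6 had 2.08% against 2.14%, the other direction. By complex, that median was higher in 7 of 7 mice for complex V (mean 0.640% against 0.561%) and in 6 of 7 for complex III (0.252% against 0.227%). As summed reads, both were higher in 5 of 7 mice, with differences smaller than their spread. The other groups were higher in 4 or 5 mice by either measure. *Aldh1a7* itself, the gene of the split, had 403 ± 253 CPM and 1.72 ± 0.969 CPM.

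**Figure D2:**
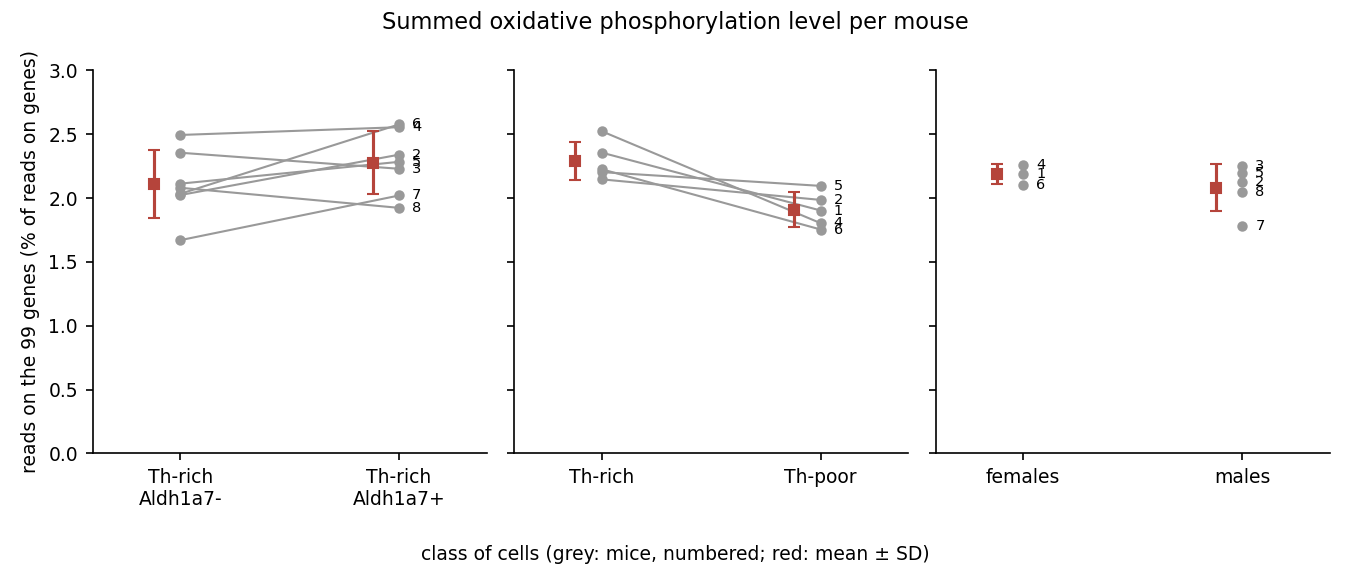
Reads on the 99 members as a percent of reads on genes (vertical axis from 0), for each mouse and class of cells. Grey points are mice, numbered, with lines joining classes of the same mouse, and red squares are means with SD bars. The 5 *Th*-poor values (1.75–2.096%) lie below the 5 *Th*-rich values (2.15–2.52%), and the other groups overlap.

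No member passed the threshold between the *Aldh1a7* classes (0 of 84 at an adjusted p under 0.05, edgeR quasi-likelihood test, lowest adjusted p of a member 0.467), where 0.231% of all genes tested did (28 of 12105). At an unadjusted p under 0.05, 5 members were higher and 0 lower, against 3.6% of all genes higher. In the fit that takes the mouse as a block, 15 members were higher at that unadjusted p (4.44% of genes tested) and again 0 passed after adjustment (0.24% of genes tested). DESeq2 called 0 members without and with the block, where it called 1.4% and 4.69% of all genes, and the lowest adjusted p of a member was 0.281 and 0.0593. The log2 fold change was above 0 for 72 of 84 members, against 48.4% of all genes. The median over members was 0.17 and that over all genes -0.02. No member separated the 7 *Aldh1a7*+ libraries from the 7 *Aldh1a7*- libraries upward, as 0.107% of all genes did.

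The values for the 8 members of smallest p follow, by complex. *Cox5a* had a lowest, median, and highest level of 173, 213, and 319 CPM in *Aldh1a7*+ cells and of 98.6, 156, and 229 CPM in *Aldh1a7*- cells. It was higher in 6 of 7 mice, with a log2 fold change of 0.53 ± 0.20 (SE; edgeR adjusted p = 0.467). *Cox7a2l* had 101, 111, and 123 CPM against 52.8, 89.7, and 108 CPM, was higher in 7 of 7 mice, and had a log2 fold change of 0.41 ± 0.19 (edgeR adjusted p = 0.607). Its level was almost the same in every *Aldh1a7*+ library (SD 7.44 CPM) and spread more in the *Aldh1a7*- libraries (SD 20.0 CPM). *Cox7a2* had 207, 249, and 311 CPM against 150, 187, and 247 CPM and was also higher in 7 of 7 mice (log2 fold change 0.35 ± 0.17, edgeR adjusted p = 0.625). All 3 genes overlapped between the classes.

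ATP synthase gave 3 of the 8. *Atp5b* had a lowest, median, and highest level of 1079, 1449, and 1913 CPM in *Aldh1a7*+ cells and of 926, 1167, and 1354 CPM in *Aldh1a7*- cells (log2 fold change 0.37 ± 0.15, edgeR adjusted p = 0.481), and mouse 8 alone went down. *Atp5f1*, subunit *b* of the peripheral stalk, had 584, 677, and 939 CPM against 437, 547, and 782 CPM and was higher in 7 of 7 mice (log2 fold change 0.34 ± 0.17, edgeR adjusted p = 0.638). *Atp5g1* of the *c* ring had 183, 287, and 403 CPM against 156, 179, and 315 CPM and was higher in 6 of 7 mice (log2 fold change 0.42 ± 0.21, edgeR adjusted p = 0.652). In complex III, *Uqcrq* had 253, 390, and 499 CPM against 213, 287, and 390 CPM (log2 fold change 0.44 ± 0.17, edgeR adjusted p = 0.481). *Ndufa11*, a subunit of the membrane arm of complex I, had 224, 366, and 587 CPM against 234, 293, and 389 CPM (log2 fold change 0.45 ± 0.20, edgeR adjusted p = 0.580). *Uqcrq* and *Ndufa11* were higher in 5 of 7 mice, with mice 3 and 8 the exceptions. Mouse 6, with 4 *Aldh1a7*+ cells, was the highest *Aldh1a7*+ library for all 8 genes. Without it 62 of 84 members were above 0, with a median of 0.11 against -0.02 for all genes, and 0 were at an unadjusted p under 0.05. With the block and without mouse 6, 6 members were at that p, all higher, and the median was 0.12 against -0.05 for all genes. The share of all genes at that p is not given for these fits.

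By complex, all 8 members of complex III and all 12 of complex IV were above 0, with medians of 0.30 and 0.23 on the log2 scale. In complex V, 16 of 17 were above 0 (median 0.15), in complex I 29 of 36 (median 0.16), among the assembly factors 5 of 7 (median 0.26), and in complex II 2 of 4 (median 0.10). The median SE of a single member in the fit without the block was 0.20, which is not an error of the median over members. In mice 2, 3, 4, 5, 6, 7, and 8 the median log2 ratio over members was 0.25, -0.08, 0.03, 0.14, 0.54, 0.33, and -0.01. The median over all genes was -0.03, 0.02, 0, -0.01, -0.16, -0.09, and -0.06 in the same mice. The *Aldh1a7*+ cells also had more genes detected (median 9778 against 8929) and more cDNA (5.25 against 3.85 ng/µl), with like numbers of reads (791394 and 786693), and the part of these in the result was not tested. The summed level of 6 pan-neuronal markers was 11503–17577 CPM over mice in *Aldh1a7*+ cells and 9754–17511 CPM in *Aldh1a7*- cells. Of 12 immediate early genes the sum was 116–342 CPM and 150–892 CPM. Summed over 6 genes each, astrocyte markers reached at most 8.23 CPM and microglial markers at most 4.07 CPM in any library of this comparison, oligodendrocyte markers 184 CPM, and endothelial markers 134 CPM. Summed markers of GABA and glutamate neurons had a median of 72.0 CPM (lowest 1.05) in *Aldh1a7*+ and of 480 CPM (range 66.8–1709) in *Aldh1a7*- libraries, with overlap, and 9 dopamine neuron markers other than *Th* were 8344–11861 CPM against 5545–9149 CPM. The part of these lists in the result was not tested either.

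**Figure D3:**
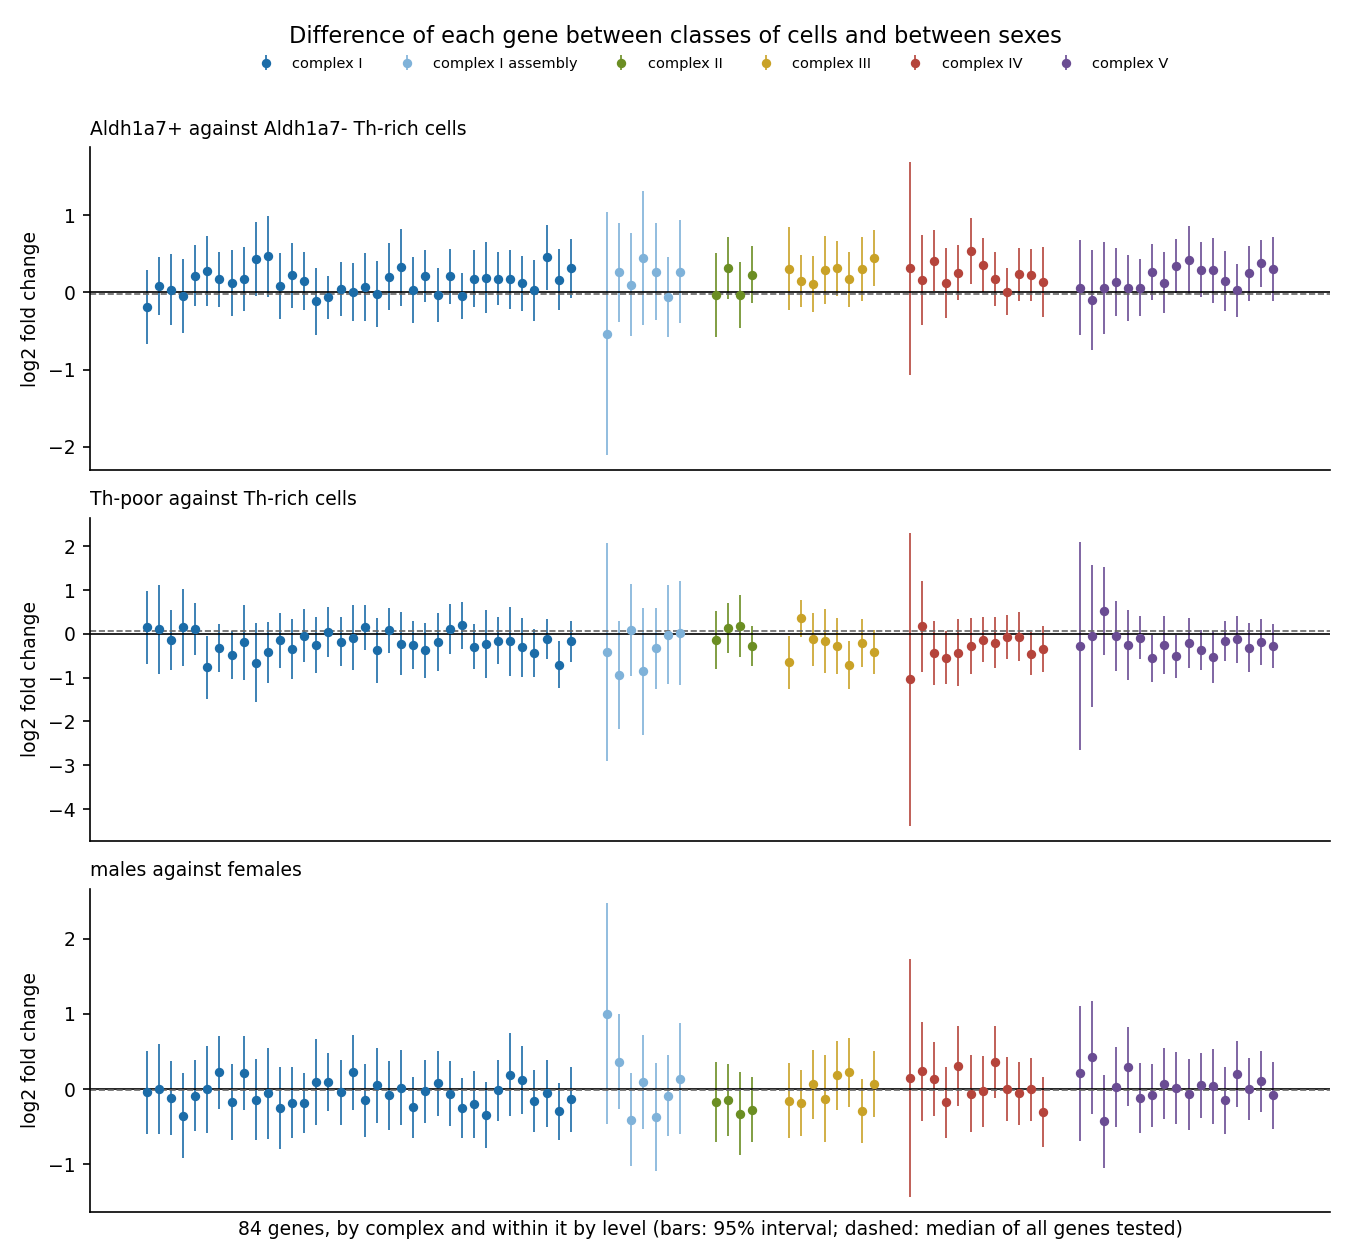
Log2 fold change of each of the 84 members in the 3 comparisons, grouped by complex and ordered by level within it, with 95% intervals from the edgeR fit. The solid line is 0 and the dashed line the median of all genes tested. Most members lie above 0 for *Aldh1a7*+ cells (72 of 84) and below 0 for *Th*-poor cells (68 of 84), and none passed the threshold.

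Whether cells low in *Th* differ was asked in 5 mice with at least 3 cells of each class (24 *Th*-poor and 95 *Th*-rich cells; 4–7 *Th*-poor cells per mouse). The *Th*-rich cells of mice 2, 4, 5, and 6 also entered the comparison above. Members took a smaller share of reads in *Th*-poor cells in all 5 mice. The *Th*-poor libraries of mice 1, 2, 4, 5, and 6 had 1.90%, 1.99%, 1.80%, 2.096%, and 1.75%, and the *Th*-rich libraries had 2.36%, 2.15%, 2.52%, 2.20%, and 2.23%. The classes did not overlap, and the means were 1.91% ± 0.138 and 2.29% ± 0.151 (SD, n = 5 mice). By complex, the mean was 0.713% against 0.848% in complex I, 0.511% against 0.640% in complex V, 0.282% against 0.357% in complex IV, and 0.223% against 0.258% in complex III, each lower in at least 4 of 5 mice. Complex II had 0.152% against 0.155%. The difference was smaller than its spread over mice in complex III (-0.0348 percentage points, SD 0.0472) and complex II (-0.0024, SD 0.0160), and larger in complexes I, IV, and V. The typical member did not move alike in the 5 mice. In mice 1, 4, and 6 the median log2 ratio of *Th*-poor to *Th*-rich over members was -0.27, -0.64, and -0.37, with 30, 11, and 18 of 84 members higher, and the median over all genes was -0.08, -0.16, and -0.20. In mice 2 and 5 it was -0.01 and -0.02, with 41 of 84 members higher in each, while the median over all genes was -0.28 and -0.38.

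Again no single member passed (0 of 84 at an adjusted p under 0.05 by edgeR, lowest adjusted p 0.282; all genes 0.264%). In the blocked fit 0 members and 0.132% of genes tested passed, and DESeq2 called 0 members without and with the block, against 4.03% and 8.38% of all genes. At an unadjusted p under 0.05, 6 members were lower and 0 higher, against 6.44% of all genes lower. The log2 fold change was below 0 for 68 of 84 members and for 46.1% of all genes, and the libraries of the 2 classes did not overlap, downward, for 3 members and for 3.0% of all genes. The shares of members at the unadjusted p and without overlap are thus near those of all genes. The median over members was -0.21 and that over all genes 0.07. With the block, the median over all genes moved by more, to -0.35, and that over members to -0.27. Against the median gene, members were therefore lower by 0.28 in the fit without the block and higher by 0.07 in the fit with it, and a direction relative to other genes cannot be given. Without mouse 4 and without the block, the median over members was -0.08 and that over all genes 0.07. With 1 mouse left out, 2–4 members were at an unadjusted p under 0.05, and 3–6 with the block. The share of all genes is not given for those fits, so these counts cannot be set against other genes.

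Complex III held 2 of the 8 members of smallest p. *Uqcr10*, a small subunit, had 121, 209, 131, 179, and 119 CPM in the *Th*-poor cells of mice 1, 2, 4, 5, and 6, and 237, 251, 254, 274, and 228 CPM in their *Th*-rich cells. Every *Th*-poor library was below every *Th*-rich library, with a log2 fold change of -0.71 ± 0.25 (SE; edgeR adjusted p = 0.282). *Uqcrfs1* had 140, 84.8, 147, 106, and 93.4 CPM against 231, 149, 162, 166, and 188 CPM, again without overlap (-0.65 ± 0.28, edgeR adjusted p = 0.403). Its fold change turned to 0.03 when *Th*-rich was set at 3000 CPM, a setting under which 7 mice were compared in place of 5.

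*Ndufb8*, of the membrane arm of complex I, had 366, 465, 445, 257, and 295 CPM in *Th*-poor cells and 678, 520, 718.6, 404, and 653 CPM in *Th*-rich cells (-0.70 ± 0.25, edgeR adjusted p = 0.286). It was lower in 5 of 5 mice, yet the classes overlapped, since the *Th*-rich library of mouse 5 (404 CPM) lay below the *Th*-poor libraries of mice 2 and 4.

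In complex V, *Atp5d* of the central stalk had 163, 118, 198, 212, and 137 CPM in *Th*-poor cells against 239, 244, 252, 222, and 261 CPM in *Th*-rich cells, without overlap (-0.56 ± 0.25, edgeR adjusted p = 0.427). *Atp5f1* had 364, 347, 441, 458, and 544 CPM against 505.7, 513.02, 806, 568.5, and 681 CPM (-0.51 ± 0.22, edgeR adjusted p = 0.425). The *Th*-rich level of *Atp5d* was much alike in the 5 mice (SD 14.4 CPM), and its *Th*-poor level was not (SD 39.4 CPM). In complex IV, *Cox4i1* had 684, 597, 338, 553, and 496 CPM against 745, 708, 817, 620, and 754 CPM (-0.45 ± 0.22, edgeR adjusted p = 0.497), and mouse 4 had the widest gap. *Cox5b*, a peripheral subunit, had 153, 104, 98.0, 148, and 105 CPM against 188, 126, 232, 189, and 155 CPM (-0.55 ± 0.28, edgeR adjusted p = 0.515). All of these genes were lower in 5 of 5 mice. Fold changes near 0 were reached with *Th*-rich from 100 CPM for *Atp5d* (-0.0019, 3 mice) and with *Th*-rich from 3000 CPM for *Cox5b* (-0.016, 7 mice).

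**Figure D4:**
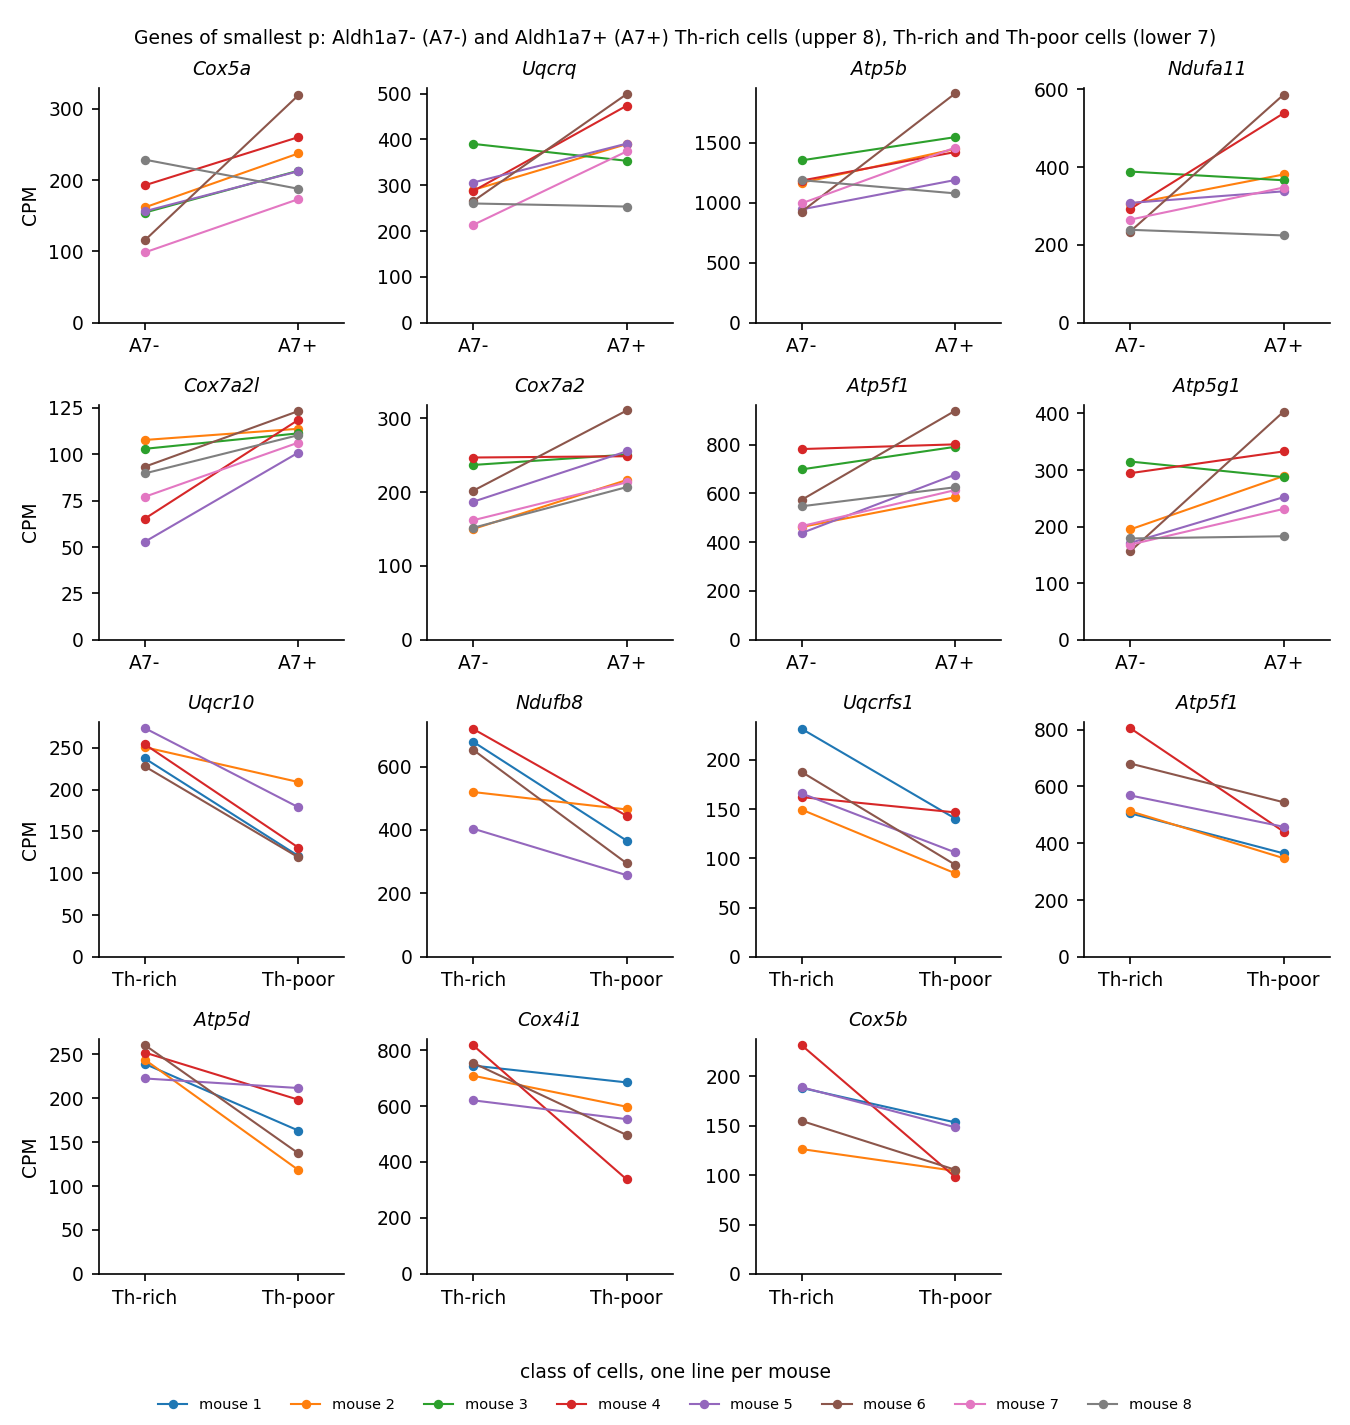
Normalized CPM (vertical axes from 0) of members of smallest p in *Th*-rich *Aldh1a7*- and *Aldh1a7*+ cells of 7 mice (upper 8 panels) and in *Th*-rich and *Th*-poor cells of 5 mice (lower 7 panels), each line a mouse. Every line is lower in *Th*-poor than in *Th*-rich cells, and in the upper panels mouse 6 has the highest *Aldh1a7*+ value of each gene.

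Other features moved with the *Th* split. Summed over 9 genes other than *Th*, which made the split, dopamine neuron markers had 1149–2874 CPM in *Th*-poor and 6281–9229 CPM in *Th*-rich libraries. *Slc6a3*, the dopamine transporter, fell by 2.86 on the log2 scale (SE 0.27, edgeR adjusted p = 0.000374). Pan-neuronal markers had 3518–7043 CPM against 8623–13793 CPM, and *Syt1*, a calcium sensor of synaptic vesicles, fell by 2.20 (SE 0.33, edgeR adjusted p = 0.0205). The sum of 12 immediate early genes was 287–9121 CPM in *Th*-poor and 133–1134 CPM in *Th*-rich libraries, and 7 of 10 tested were higher at an unadjusted p under 0.05 (4.63% of all genes) while none passed. In the blocked fit 3 of 10 were (2.72% of all genes). *Th*-poor cells had fewer genes detected (median 7834 against 8949), less cDNA (2.81 against 4.41 ng/µl), and fewer reads (691730 against 789425). Summed astrocyte markers were 0–1537 CPM against 0.613–2.49 CPM, endothelial markers 0–937 against 1.67–69.7 CPM, oligodendrocyte markers 12.2–180 against 25.7–76.1 CPM, microglial markers 0.265–13.1 against 0–1.93 CPM, and markers of GABA and glutamate neurons 394–2036 against 116–864 CPM. Of the 6 astrocyte, 6 oligodendrocyte, 6 microglial, and 6 endothelial markers, 0, 1, 2, and 1 had no read in any retained cell. The part of these features in the result was not tested.

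Males and females were compared over all retained cells of a mouse (5 and 3 mice, 162 and 47 cells). The mix of cells differed: 15 of 47 female cells and 13 of 162 male cells were *Th*-poor, and 8 and 66 were *Aldh1a7*+. The summed level was 2.08% ± 0.184 of reads in males and 2.19% ± 0.0790 in females (SD), and the range of females (2.104–2.26%) lay within that of males (1.78–2.25%) except for mouse 4 at 2.26%. The difference of -0.106 percentage points was -0.0679 without mouse 4 and -0.0307 without mouse 7, and -0.189 by the median over cells. Complex II alone of the 6 groups did not overlap, at 0.138% of reads in males (range 0.114–0.152%) and 0.168% in females (range 0.160–0.178%). Each of its 4 genes had a log2 fold change below 0 (-0.32 to -0.14) and overlapped between the sexes. No member passed (0 of 84 by edgeR, lowest adjusted p 0.722, all genes 0.0413%; 0 by DESeq2, all genes 0.898%), and 0 were at an unadjusted p under 0.05, against 7.8% of all genes. The log2 fold change was below 0 for 49 of 84 members and for 51.1% of all genes, and the median was -0.04 over members and -0.01 over all genes. With 5 and 3 mice, the median SE of a single member was 0.22, so a difference of that size in a single member would not be seen.

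The sexes did not overlap for *Ndufb8* and *Atp5g2*, both lower in males (2 of 84 members, against 2.71% of all genes). *Ndufb8* had 509, 502.7, 390, 455, and 481 CPM in the males (mice 2, 3, 5, 7, and 8) and 556, 611, and 555 CPM in the females (mice 1, 4, and 6), a log2 fold change of -0.30 with a 95% interval from -0.68 to 0.08 (edgeR adjusted p = 0.722). *Atp5g2* had 31.1, 27.5, 25.6, 25.9, and 26.3 CPM against 39.1, 36.7, and 34.5 CPM (-0.43, interval -1.05 to 0.18, edgeR adjusted p = 0.745). *Ndufaf6* had the largest fold change among the 8 members of smallest p, 1.00 with an interval from -0.47 to 2.47, from 11.9 ± 3.06 CPM (males) and 5.93 ± 4.51 CPM (females), and it was 0.56 without mouse 6 and 1.74 without mouse 1. *Cox6c*, a small subunit of complex IV, averaged 239 ± 46.1 CPM in the 5 males against 186 ± 24.2 CPM in the 3 females. *Cox6a1* was at 827 ± 187 and 1019 ± 86.7 CPM, and *Ndufs7*, a core subunit of complex I, at 253 ± 31.1 and 320 ± 64.8 CPM. *Uqcr11* of complex III was at 243 ± 37.1 and 299 ± 24.4 CPM, and the assembly factor *Ndufaf1* at 37.4 ± 8.28 and 49.5 ± 4.12 CPM, and these 5 genes overlapped between the sexes. All females had been run on the C1 machine named SMEAGOL, together with males 2 and 7. The labels also give a chip size and a lane. Both differed between mice, and their part was not tested in any comparison. Within that machine the median over members was -0.15 and that over all genes -0.03. There 0 members passed, as did 1 of 12105 genes. The other machine held males only, so it gives no value. Males also had more genes detected (median 9310 against 8648) and more cDNA (4.36 against 2.78 ng/µl), and the sum of immediate early genes was 172–1182 CPM in males and 479–4015 CPM in females. The 10 dopamine neuron markers summed to 12004–17458 CPM in males and 9282–11894 CPM in females, and the pan-neuronal markers to 10158–17170 and 6782–10703 CPM. Females were 25, 33, and 36 d old and males 24–28 d, so age moved with sex. The part of these, of age, and of the mix of cells in the result was not tested. Without the 2 cells high in oligodendrocyte markers, 0 members passed and the median over members was -0.03.

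Genes that work beside the complexes were taken from lists. Of 34 tested assembly and import factors outside the name rule, 12 genes of electron carriers, 8 of ADP, ATP, and phosphate transport, 16 of the TCA cycle, 18 of glycolysis, and 13 regulators of mitochondrial biogenesis, none passed the threshold in any of the 3 comparisons (edgeR, no block). At an unadjusted p under 0.05 in *Aldh1a7*+ cells, 0, 1, 4, 1, 3, and 0 of them were higher (3.6% of all genes) and 0 lower. All 8 transport genes were above 0, with a median of 0.29, as were 15 of 18 glycolysis genes, with a median of 0.25, and 48.4% of all genes. Of the other lists, 22 of 34 assembly and import factors, 7 of 12 electron carriers, 12 of 16 TCA cycle genes, and 8 of 13 regulators were above 0. Their medians were 0.11, 0.26, 0.18, and 0.27, and that of the regulators was -0.01 with the block. In *Th*-poor cells the same lists had 2, 0, 0, 1, 0, and 1 genes higher (4.63% of all genes) and 2, 1, 2, 0, 2, and 0 lower (6.44% of all genes) at that p. In males 1, 0, 0, 0, 0, and 1 were higher (3.57% of all genes) and 1, 0, 0, 0, 1, and 2 lower (4.23% of all genes). In the blocked fit 1 of these genes passed, as did 0.24% of all genes: *Ldhb*, the lactate dehydrogenase subunit common in oxidative tissues, was at 2292 ± 1035 CPM in *Aldh1a7*+ cells and 1112 ± 540 CPM in *Aldh1a7*- cells (log2 fold change 1.03 ± 0.17, edgeR adjusted p = 0.0453). Of the type markers, *Slc6a3* also passed with the block in that comparison, at 4847 ± 1222 and 2451 ± 813 CPM (1.01 ± 0.12, edgeR adjusted p = 0.00978).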

How the data were processed

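Single cells had been sorted for tdTomato, run on the Fluidigm C1 with a chip for each mouse, and sequenced from SMARTer cDNA and Nextera XT libraries. The authors deposited a raw read count per gene and cell, without normalization. Upstream steps were trimming (Trimmomatic 0.3.2), alignment to GRCm38 (TopHat2 2.1.1), and counting (featureCounts 1.5.0-p3). Of 47082 entries, 5721 had no count in any cell. Spike-in and transgene entries (0.00457% of reads) were left out, and a table of alignment metrics without cell names was not used here.

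Cells with at least 500000 reads were kept (209), and their counts were summed per mouse and class where a mouse had at least 3 cells of each class, since cells of a mouse are not replicates. The filter on genes was 10 or more reads in 10 or more of these cells. The test was the quasi-likelihood test of edgeR 4.0.16 (R 4.3.3) with TMM factors, adjusted by Benjamini-Hochberg over 12105 genes with a threshold of 0.05. The SE is the size of the log2 fold change over the square root of F. DESeq2 1.42.0 was the other tool. The classes of a mouse come from the same animal; as deviations from the class means, their libraries correlated at 0.0537–0.240 (*Aldh1a7* split) and 0.0368–0.159 (*Th* split), and the mouse as a block was an alternative. Transcript lengths came from GENCODE vM21 and promoters from RefSeq (both GRCm38). The use of the shortest transcript was chosen after levels by the longest had been seen. The fit was run on simulated counts, with changes larger than those of most members and no pairing within a mouse. Smaller changes were not simulated, so that run says nothing on differences of the size seen here. Python 3.11.15 with pandas 2.3.3 was used. The depth per mouse was 8499655–32834172 reads.

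The members, the classes, and the lists were chosen with earlier results of these data known. The genes named were, in each comparison, the 8 members of smallest p (none passed; the values of 1 in the *Th* split are not reported here), 8 subunits chosen as core or central ones, the isoform families, the 5 highest and 5 lowest members per kb, and genes of the lists past the threshold (at most 3 per list). Of the other lists, none of the 8 nigral and 9 ventral tegmental type genes passed in the *Aldh1a7* split beside *Aldh1a7*, which made it. In the *Th* split, beside *Th* itself, *Slc6a3*, *Slc18a2*, *Aldh1a7*, *Aldh1a1*, and *Syt1* passed; with the block *Th* and *Aldh1a1* did not and *Anxa1* did. No marker of another cell type passed.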

Additional observations from a re-analysis of the deposited data

How the results depend on the processing

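The count of members past the threshold was 0 under all 28 alternatives for the *Aldh1a7* classes, all 21 for the *Th* classes, and all 16 for the sexes (other tool, scaling, filter, depth, thinning, thresholds for the classes, left-out mice, for the classes, the mouse as a replicate block, and, for the sexes, without 2 cells, chosen after seeing the data). The block changed no call of a member. The median log2 fold change of members ran from 0.07 to 0.27 for the *Aldh1a7* classes (0.11–0.23 without a mouse), from -0.36 to -0.08 for the *Th* classes, and from -0.15 to 0.05 for the sexes, where the value above 0 came from the test without a filter on low counts. Of the fold changes of the 8 members of smallest p in each comparison, 1 changed sign, that of *Uqcrfs1* with *Th*-rich from 3000 CPM (0.0298), and those of *Atp5d* and *Cox5b* came to -0.0019 and -0.016 with *Th*-rich from 100 and 3000 CPM. The mice compared changed too (3 and 7 in place of 5), and the cause was not tested. The difference in summed level was 0.132–0.243 percentage points for the *Aldh1a7* classes with thinned cells or the median over cells, -0.381 to -0.325 for the *Th* classes, and -0.189 to -0.153 for the sexes, against -0.106 in the sum. Without 1 mouse (added after seeing the data) it was 0.103–0.220, -0.452 to -0.299, and -0.149 to -0.0307. From 250000 or 1000000 reads per cell, 84 and 83 members passed the filter (34 cells in the latter). Over all genes the calls moved by more than 1.5 times: for the *Aldh1a7* classes 28 by edgeR, 169 by DESeq2, and 4.69% of genes by DESeq2 with the block; for the *Th* classes 32, 474, and 1014, and 16 by edgeR with the block; for the sexes 5 and 108. With at least 5 cells per class, 2 mice were left for the *Th* classes. *Ndufaf6*, *Cox7a1*, and *Atp5g2* rest on few reads per cell.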
